A study of Mus musculus with 24 samples.

Results

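The NR4A family is a subgroup of nuclear receptors with 3 members in the mouse, Nr4a1 (Nur77), Nr4a2 (Nurr1) and Nr4a3 (Nor1). The members were taken by name, as the whole family, with earlier results of these data known, and each had 1 Ensembl entry among the 37621 gene entries of the count tables. Their transcripts were followed in 24 libraries of ribosomal RNA-depleted total RNA from dissected cerebellum, cortex, hippocampus and olfactory bulb of C57BL/6 mice. Each region had 3 libraries from mice of the genotype labelled Cdr1as knockout and 3 from wild-type mice. Cdr1as, the RNA missing from the knockout, is a neuronal circle with many sites for the microRNA miR-7. The labels give no age, treatment or breeding scheme and do not say whether replicates came from separate animals. If they did not, a p-value here reflects technical spread alone.

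NR4A receptors are called orphan receptors because no physiological ligand is established for them. Their ligand pocket is filled by amino acid side chains, so the amount of protein, rather than a hormone, largely sets how much target DNA they occupy. The genes are immediate early genes: calcium and cyclic AMP signals raised by neuronal firing switch them on within minutes, through the factor CREB bound at cyclic AMP response elements, and the proteins then act on a later set of genes. In the hippocampus they are known for a part in the consolidation of memory, and Nr4a2 is also required for the making and upkeep of midbrain dopamine neurons.

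By GENCODE annotation of GRCm38, Nr4a1 lies on the plus strand at chr15:101254269-101274795, Nr4a2 on the minus strand at chr2:57106830-57124003 and Nr4a3 on the plus strand at chr4:48045153-48086447. No other annotated gene overlapped any of the 3. The RefSeq promoter table (GRCm38.p6) was searched for the core of the cyclic AMP response element, TGACG or its reverse complement CGTCA, in the 250 bases before each listed start, since the 3 genes were higher together in most regions of the knockout. Each member held 4 matches there, and 45 of 32851 windows of that length, or 0.137%, held 4 or more. The windows were not matched for base composition. A 30-base stretch with the most matches follows for each gene, 5′ to 3′ on its own strand, with the matches in capitals. For Nr4a2 and Nr4a3 other stretches held as many matches.

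Nr4a1: ctgCGTCAatggaaccccgcgtgCGTCAcg

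Nr4a2: cgCGTCAcggagcccggccgggcTGACGgg

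Nr4a3: agggTGACGtagcgtcccatgtCGTCAcat

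Counted from the listed start, the Nr4a1 stretch runs from -236 to -207 (chr15:101266610-101266639, plus strand), within an intron of a longer Nr4a1 isoform. The Nr4a2 stretch runs from -146 to -117 (chr2:57124120-57124149, minus strand) and the Nr4a3 stretch from -235 to -206 (chr4:48045070-48045099, plus strand), and both lie upstream of the annotated genes. The whole element TGACGTCA, which contains the core in both orientations, was in none of the 3 windows and in 1.55% of all windows. The binding motif of the NR4A proteins themselves, AAAGGTCA on either strand, was also in none of the 3, against 1.34% of all windows, and so was the CArG box of serum response factor, against 1.47%. These are matches of letters, and binding was not measured.

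The microRNA tied to Cdr1as has its seed, bases 2 to 8, in capitals in the RefSeq sequence below, followed by the place in the Nr4a3 3′ UTR where the seed's complement was found.

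miR-7a-5p: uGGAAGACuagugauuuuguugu

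Nr4a3 site: gccagtgttcttctGTCTTCCatagtta

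The match starts at base 2733 of the 3098 bases of the longest annotated Nr4a3 3′ UTR (chr4:48086082-48086088, plus strand), and GTCTTCC occurred in the longest 3′ UTR of 11.6% of 21685 genes. The 3′ UTRs of Nr4a1 (546 bases) and Nr4a2 (1329 bases) held no such match, and none of the 3 held GGCTTCC, the seed match of miR-671-5p, which also pairs with Cdr1as. So only Nr4a3 of the 3 members, which also has the longest 3′ UTR of them, holds GTCTTCC in this annotation. Other kinds of miR-7 seed match were not searched. The 11.6% was not matched for 3′ UTR length.

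The libraries held 5175203 to 30459968 gene counts. Of these, 3 libraries had 5175203 to 7395560 and held at most 16483 detected genes: cerebellum knockout 1, olfactory bulb wild type 1 and olfactory bulb knockout 2. Cdr1as had 0 to 13 counts in each knockout library and 5617 to 130878 in each wild-type library, as the labels say. Region markers separated the regions, with summed levels in the region of origin above those in every library of another region for each of the 4 marker lists. Every library had at least 100 counts of each NR4A member (highest 5255). Levels below are CPM, counts relative to the library total, scaled by the trimmed mean of M-values (TMM) over all 24 libraries. In bulk tissue, more cells with a transcript and more transcript per cell cannot be told apart.

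In wild-type brain the members had different regional profiles. Nr4a1 was highest in the olfactory bulb, at 78.8 ± 51.0 CPM (SD, n = 3), followed by the cortex at 61.9 ± 17.4, the hippocampus at 43.2 ± 12.2 and the cerebellum at 17.7 ± 6.07. Regions were compared by edgeR's quasi-likelihood test over the 12 wild-type libraries, taken as independent although those of the same number may share an animal. By this test the cerebellum lay below each other region (log2 difference -1.27 to -2.18, adjusted p = 0.00136 to 0.0283). The other pairs missed the threshold, with adjusted p of 0.504 for cortex and olfactory bulb, 0.505 for cortex and hippocampus, and 0.107 for hippocampus and olfactory bulb. Hippocampus and olfactory bulb were told apart with the replicate number as a factor (-0.78, adjusted p = 0.00378) and without olfactory bulb wild type 1 (-1.24, adjusted p = 0.0207). The wild-type olfactory bulb libraries spanned 37.4, 63.2 and 135.7 CPM, and without the third the cortex was the higher of the pair, by 0.28 on the log2 scale.

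Nr4a2 and Nr4a3 shared another order, with the hippocampus highest and the cerebellum lowest. From hippocampus through cortex and olfactory bulb to cerebellum, Nr4a2 stood at 67.4 ± 5.95, 46.9 ± 4.21, 16.1 ± 3.31 and 14.5 ± 2.53 CPM, and Nr4a3 at 118.5 ± 6.41, 52.7 ± 16.7, 24.5 ± 12.2 and 21.8 ± 5.06 CPM. Olfactory bulb and cerebellum were not told apart for either gene (adjusted p = 0.447 for Nr4a2 and 0.67 for Nr4a3), while both lay below cortex and hippocampus (adjusted p = 1.67e-07 to 0.0114). Hippocampus exceeded cortex for Nr4a3 (log2 difference of cortex minus hippocampus -1.14, adjusted p = 0.022) but missed the threshold for Nr4a2 (-0.50, adjusted p = 0.0744). Such regional differences were common: 46.7% of genes passed between cerebellum and cortex, 42.1% between cerebellum and hippocampus, 36.6% between cerebellum and olfactory bulb, 9.77% between cortex and hippocampus, 38.3% between cortex and olfactory bulb, and 33.8% between hippocampus and olfactory bulb.

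Several of these calls were lost when 1 library was left out, while the differences kept their sign. The Nr4a1 difference between cerebellum and hippocampus lost its call when any of 5 single libraries was left out (cerebellum wild type 1 or 2, cortex wild type 2, hippocampus wild type 2 or 3), with adjusted p up to 0.102. The Nr4a3 difference between cortex and hippocampus also lost it without any of 5 (hippocampus wild type 1, 2 or 3, cortex wild type 2 or 3), with adjusted p up to 0.0931. The Nr4a3 difference between cortex and olfactory bulb lost it without cortex wild type 1 (0.81, adjusted p = 0.0526) or olfactory bulb wild type 2 (0.95, adjusted p = 0.0566).

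**Figure D1:**
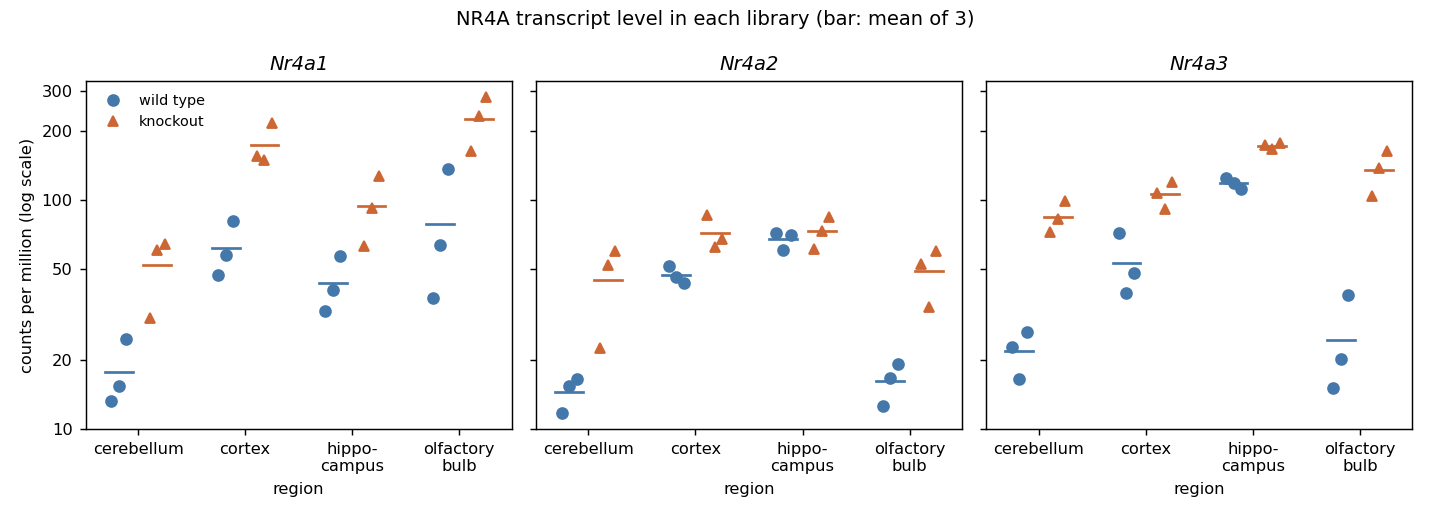
Level of each NR4A transcript in each of the 24 libraries, in CPM on a log scale, by region and genotype; short bars are the means of 3 libraries. Knockout libraries (triangles) lie above all wild-type libraries (circles) of the same region in 11 of 12 comparisons, and the 2 genotypes interleave for Nr4a2 in the hippocampus.

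Nr4a1, the member most often used as a reporter of recent cell stimulation, was higher in knockout libraries in all 4 regions. In the cerebellum the knockout libraries held 30.4, 60.5 and 64.3 CPM and the wild-type libraries 13.1, 15.4 and 24.6. In the cortex they held 155.0, 149.8 and 218 CPM against 47.1, 57.5 and 81.1. All 3 knockout libraries lay above all 3 wild-type libraries in both regions, with the wider gap in the cortex, where the lowest knockout library was 1.85 times the highest wild-type one.

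In the hippocampus Nr4a1 was at 62.9, 92.5 and 127.6 CPM in the knockout and 32.6, 40.3 and 56.6 CPM in the wild type. In the olfactory bulb it was at 163, 231.8 and 281.9 CPM in the knockout and 37.4, 63.2 and 135.7 CPM in the wild type. The genotypes did not overlap in either region, but the gap was narrow, 1.11 and 1.20 times between the nearest libraries. The log2 difference, knockout minus wild type, was 1.57 (SE 0.33, 95% interval 0.80 to 2.34) in the cerebellum, 1.47 (SE 0.23, 0.95 to 1.99) in the cortex, 1.14 (SE 0.28, 0.49 to 1.78) in the hippocampus and 1.5 (SE 0.39, 0.62 to 2.38) in the olfactory bulb. Adjusted over all genes by edgeR, p was 0.949, 0.337, 0.953 and 0.992, so no region passed the threshold.

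For Nr4a2, the receptor of the midbrain dopamine lineage, the size of the genotype difference varied by region. The edgeR test of that variation, given below, missed the threshold. In the cerebellum the knockout libraries held 22.5, 52.1 and 59.7 CPM and the wild-type libraries 11.6, 15.3 and 16.5, and in the olfactory bulb 52.5, 34.1 and 59.8 CPM against 12.5, 16.6 and 19.1. There the knockout means were about as far above the wild type as for Nr4a1, with log2 differences of 1.65 (SE 0.34, 0.86 to 2.44, adjusted p = 0.949) and 1.59 (SE 0.24, 1.06 to 2.12, adjusted p = 0.156). In the cortex the libraries held 85.6, 62.0 and 67.2 CPM against 51.6, 46.0 and 43.3, a smaller difference of 0.58 (SE 0.14, 0.26 to 0.90, adjusted p = 0.844) without overlap.

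In the hippocampus, where wild-type Nr4a2 was highest, the knockout libraries held 60.9, 73.2 and 84.4 CPM and the wild-type libraries 71.7, 60.6 and 69.9. The genotypes overlapped, with the knockout library higher in 7 of the 9 pairs of libraries. The log2 difference was 0.12 (SE 0.13) with a 95% interval of -0.18 to 0.42, so these data bound a rise of hippocampal Nr4a2 at 0.42 and do not show that the genotypes are equal.

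Nr4a3 had the widest gap of the 3 members between the nearest libraries of each genotype in the cerebellum, olfactory bulb and hippocampus. In the cortex Nr4a1 had it. A link of these gaps to the miR-7 match printed above was not tested. Cerebellar knockout libraries held 72.01, 82.5 and 98.5 CPM and wild-type libraries 22.7, 16.4 and 26.4, and the lowest knockout library was 2.72 times the highest wild-type one. In the olfactory bulb the libraries held 104, 138.2 and 163.7 CPM against 15.1, 20.2 and 38.3, again with a gap of 2.72 times. The log2 differences were 1.96 (SE 0.19, 1.51 to 2.41, adjusted p = 0.0813) and 2.45 (SE 0.31, 1.75 to 3.14, adjusted p = 0.0617). By unadjusted p, Nr4a3 ranked second of 15536 genes in the cerebellum, after Cdr1as itself, and 5 of 15831 in the olfactory bulb.

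Cortical Nr4a3 was at 107, 91.3 and 120.2 CPM in the knockout and 71.4, 39.1 and 47.6 CPM in the wild type, a log2 difference of 0.99 (SE 0.21, 0.49 to 1.48, adjusted p = 0.701). Hippocampal Nr4a3 was the tightest of all 12 comparisons in its replicates, at 173, 166.6 and 177.3 CPM against 124.7, 118.7 and 111.9. Its log2 difference there was 0.55 (SE 0.09, 0.35 to 0.75, adjusted p = 0.471), the smallest of the 4 regions for this gene, and the genotypes did not overlap in either region (gaps of 1.28 and 1.34 times). Nr4a1 had the larger log2 difference in both.

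**Figure D2:**
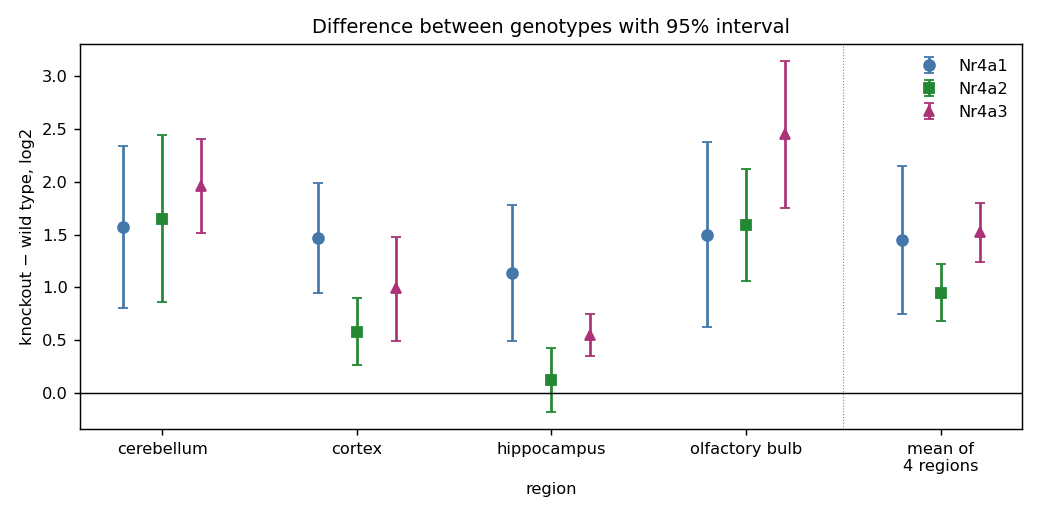
Log2 difference between knockout and wild type for the 3 members in each region (edgeR, 3 against 3 libraries) and for the mean of 4 regions (limma), with 95% intervals. The interval includes 0 only for Nr4a2 in the hippocampus, and the Nr4a3 difference runs from 0.55 in the hippocampus to 2.45 in the olfactory bulb.

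Across the 12 comparisons of a member in a region, knockout libraries lay wholly above wild-type libraries in 11. The 12 are not separate pieces of evidence. The 3 members were read in the same libraries and correlated at 0.82 to 0.89 with region means removed. Leaving out libraries cannot undo a complete separation, so the count of 11 could not fall in a smaller set and its size there is no check. It was 11 of 12 without the 3 shallow libraries. Without hippocampus wild type 1 and 3, which leaves 1 wild-type library there, it was 12 of 12. The same complete separation in that direction was seen for 4.3% of all genes tested in the cerebellum, 6.94% in the cortex, 5.03% in the hippocampus and 6.25% in the olfactory bulb. An unadjusted p under 0.05 with a higher knockout level was also reached in 11 of 12, against 1.25%, 2.62%, 1.95% and 1.52% of all genes in those regions.

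None of the 12 passed an adjusted p of 0.05 in edgeR, where 0.00644%, 0.00634%, 0.0062% and 0.0253% of all genes in the same regions passed. With DESeq2 on the same genes 9 of 12 passed: all 3 members in the cerebellum, Nr4a1 and Nr4a3 in cortex and hippocampus, and Nr4a2 and Nr4a3 in the olfactory bulb. DESeq2 called 0.122%, 0.247%, 0.0993% and 0.0821% of all genes there, with log2 differences within 0.01 of those from edgeR for every member. The calls therefore depend on the test, and the sizes do not.

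Single libraries also moved calls. Without the shallow cerebellum knockout 1, the lowest of its group for every member, Nr4a2 reached 1.96 (adjusted p = 0.0023) and Nr4a3 2.05 (adjusted p = 0.0436) in the cerebellum. Without olfactory bulb wild type 3, the highest of its group for every member, Nr4a1 reached 2.13 (adjusted p = 0.0364) and Nr4a3 2.91 (adjusted p = 0.00241), and without the shallow olfactory bulb knockout 2, Nr4a2 reached 1.77 (adjusted p = 0.0391). Cortex libraries of the same number had r of 0.15 to 0.59 between genotypes, and differently numbered ones -0.64 to 0.32. That pairing was read from these same data and is not given by the labels. In the cortex the fit blocked on replicate number gave 1.49 for Nr4a1 (adjusted p = 4.36e-05) and 1.02 for Nr4a3 (adjusted p = 0.0303). It called 0.19% of all genes.

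Summed markers of other tissues and cell types lay apart between genotypes in a few sets, and their part in these results was not tested. Of 48 sets of 1 marker list in 1 region (12 lists), summed levels separated the genotypes in 5, with the knockout higher in 2 and lower in 3. Among single genes, 4.3% to 6.94% by region were separated with the knockout higher, and the share with the knockout lower was not counted. Whether 5 of 48 is more than groups of 3 libraries give without a genotype difference was not tested. Summed over 7 olfactory bulb markers, the cerebellum held 60.1 to 72.6 CPM in knockout and 24.4 to 35.2 in wild-type libraries, with Tbx21 and Sp8 at 0 counts in the knockout. The cortex held 19.4 to 20.9 CPM of the same markers in the knockout and 31.5 to 59.0 in the wild type, and 58.3 to 82.6 against 83.5 to 98.0 CPM of 7 cerebellum markers. Red blood cell markers (3 of 5 matched) summed to 51.1 to 86.3 CPM in knockout and 36.6 to 46.7 in wild-type cerebellum, and 7 choroid plexus markers to 4.94 to 7.29 and 7.38 to 19.3 in the olfactory bulb.

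Some lists stood apart in single libraries. In the hippocampus choroid plexus markers summed to 33.3 to 39.7 CPM in the knockout but to 1870 and 2354 in wild type 3 and 1 (33.4 in wild type 2), and in the cerebellum to 255.8 to 624.4 in the knockout and 24.2 to 1095 in the wild type. Meningeal markers (8 genes) summed to 537.4 CPM in olfactory bulb knockout 2 and 368.4 in wild type 3, against 123.9 to 203.6 in the other 4 libraries of that region, and those 2 are among the libraries whose removal moved calls. Endothelial, microglial and midbrain dopamine markers overlapped between genotypes in every region.

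Without those 2 choroid-rich libraries, a choice made after the values were seen, only wild type 2 was left against 3 knockout libraries, and the hippocampal differences were 1.23 for Nr4a1, 0.27 for Nr4a2 and 0.54 for Nr4a3. In the olfactory bulb, knockout 3 held 521.9 CPM of 7 hypothalamic and pituitary markers and the other 5 libraries 1.93 to 8.15. Markers of the subplate and claustrum, deep cortical cells in which Nr4a2 is a defining gene, summed to 272 to 290.1 CPM in cortex of the knockout and 245.5 to 309 in the wild type.

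When the 4 regions were averaged within each genotype and replicate number, Nr4a3 rose in the knockout by 1.52 on the log2 scale (SE 0.13, 1.24 to 1.80, limma adjusted p = 0.00124). It was 1 of 2 genes called, or 0.0114% of 17600, the other being Cdr1as. Nr4a2 was higher by 0.95 (SE 0.12, 0.68 to 1.22, adjusted p = 0.0561) and Nr4a1 by 1.45 (SE 0.30, 0.75 to 2.15, adjusted p = 0.838), and 1.49% of all genes had an unadjusted p under 0.05 and a higher knockout level. Same-numbered means of the 2 genotypes had r of 0.17 to 0.23, against -0.15 to -0.02 for differently numbered ones. The labels give no such pairing, which was read from these same data. In the blocked limma fit all 3 members passed, Nr4a1 at adjusted p = 0.000187 and Nr4a2 at 0.00399, among 0.0852% of all genes. The Nr4a3 call was lost when the olfactory bulb was left out of the mean (1.18, adjusted p = 0.0962), and the Nr4a2 call was gained without knockout 1 (1.04, adjusted p = 0.0469) or without the hippocampus (1.23, adjusted p = 0.0148).

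The Nr4a1 block result goes with a regularity in its values. Knockout 3 held the highest Nr4a1 of its group in 4 of 4 regions, and so did wild type 3, while wild type 1 was the lowest of its group in 4 of 4. Knockout 3 was also highest for Nr4a3 in 4 of 4 regions and for Nr4a2 in 3 of 4. The labels do not say whether libraries of the same number come from the same animal or were processed together.

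How the genotype difference varied by region was tested over all 24 libraries. The test took them as independent, although libraries of the same genotype and number may come from 1 animal. No region stood apart for Nr4a1: its difference in each region minus the mean of the other regions lay between -0.39 and 0.19, and the 95% intervals reached from -1.34 to 1.16. For Nr4a2 the hippocampal difference was the smallest, at -1.18 against the mean of the other regions (SE 0.28, -1.76 to -0.59), while cerebellum and olfactory bulb exceeded the others by 0.88 (SE 0.29, 0.28 to 1.48) and 0.81 (SE 0.29, 0.21 to 1.42). For Nr4a3 the same contrast was -1.26 in the hippocampus (SE 0.28, -1.85 to -0.68) and -0.64 in the cortex (SE 0.28, -1.23 to -0.06). It was 1.29 in the olfactory bulb (SE 0.29, 0.69 to 1.89) and 0.62 in the cerebellum (SE 0.29, 0.02 to 1.21).

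After adjustment over 17600 genes none of these passed. The adjusted p of the overall interaction was 0.222 for Nr4a3, 0.745 for Nr4a2 and 1 for Nr4a1, and every contrast of 1 region with the others had an adjusted p of 1 for the 3 members. By unadjusted p Nr4a3 ranked 4 and Nr4a2 ranked 7 in the overall test, and 1.48% of all genes had an unadjusted p under 0.05. The overall test called 0.00568% of all genes, and the contrasts called 0.00568% for cerebellum, cortex and hippocampus each and 0% for the olfactory bulb.

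DESeq2's likelihood ratio test called Nr4a3 (adjusted p = 0.000607) and Nr4a2 (adjusted p = 0.0141), among 0.0739% of all genes, and not Nr4a1 (adjusted p = 1). In edgeR, leaving out olfactory bulb wild type 3 brought Nr4a3 to an adjusted p of 0.00356 in the test over all regions, 0.0303 in the hippocampal contrast (-1.42) and 0.0183 in the olfactory bulb contrast (1.76), and leaving out cerebellum knockout 1 brought Nr4a2 to 0.0202. Without all 3 shallow libraries Nr4a2 was called (adjusted p = 0.00251) and Nr4a3 was not (0.696). Whether Nr4a2 and Nr4a3 differ by region between genotypes was thus not settled by these tests.

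**Figure D3:**
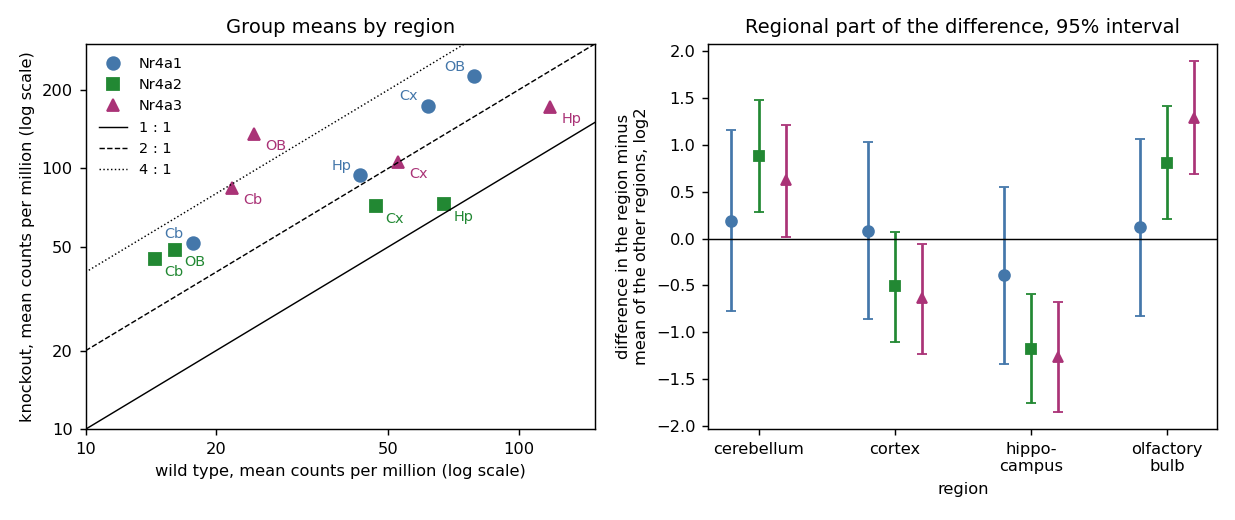
Left, mean CPM of each member in knockout against wild type by region (log scales; Cb cerebellum, Cx cortex, Hp hippocampus, OB olfactory bulb), with lines at ratios of 1, 2 and 4. Right, the log2 genotype difference in each region minus the mean of the other regions, with 95% intervals: Nr4a2 and Nr4a3 lie lowest in the hippocampus (-1.18 and -1.26), and every Nr4a1 interval includes 0.

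Set against the wild-type order, the regions with the least Nr4a2 and Nr4a3 had the larger differences. The mean Nr4a2 level varied 4.66-fold between the highest and the lowest region in the wild type and 1.63-fold in the knockout, and the order of the regions was the same. Nr4a3 varied 5.43-fold in the wild type and 2.04-fold in the knockout, where the olfactory bulb (135.4 ± 29.8 CPM) moved ahead of the cortex (106 ± 14.4). Nr4a1 varied 4.45-fold and 4.36-fold, in the same order. This comparison of means shares its wild-type values with the difference it is set against, and no test was made of it.

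Members can be compared with each other only per length, here as CPM per kilobase of merged exons (3509 bases for Nr4a1, 4059 for Nr4a2 and 5987 for Nr4a3, which includes exons of all annotated isoforms). The summed NR4A level per kilobase was 12.3 ± 2.81 in wild-type cerebellum, 30.5 ± 17.3 in olfactory bulb, 38.0 ± 3.75 in cortex and 48.7 ± 3.001 in hippocampus. In the knockout it was 39.9 ± 12.1, 98.9 ± 22.8, 85.0 ± 12.8 and 73.6 ± 12.5. By these means the highest sum was in the hippocampus in the wild type and in the olfactory bulb in the knockout. In the knockout, mean ± SD of olfactory bulb, cortex and hippocampus overlapped, and the order was not tested.

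The make-up of the sum varied by region. Nr4a1 made up 71.3 ± 6.10% of it in wild-type olfactory bulb and 64.6 ± 3.72% in the knockout, and 25.1 ± 5.77% and 35.8 ± 6.50% in the hippocampus. The Nr4a3 share in the olfactory bulb was 12.9% to 15.5% in wild-type and 22.3% to 23.7% in knockout libraries, without overlap. The Nr4a2 share in the hippocampus was 32.3% to 37.0% in wild-type and 23.97% to 24.97% in knockout libraries, also without overlap. In the cortex it was 25.57% to 33.38% in wild-type and 16.77% to 25.36% in knockout libraries, again without overlap but with a narrow gap. All other shares overlapped between genotypes, and no share was tested. In the cerebellum each member held 26.7% to 40.5% of the sum on average in either genotype.

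**Figure D4:**
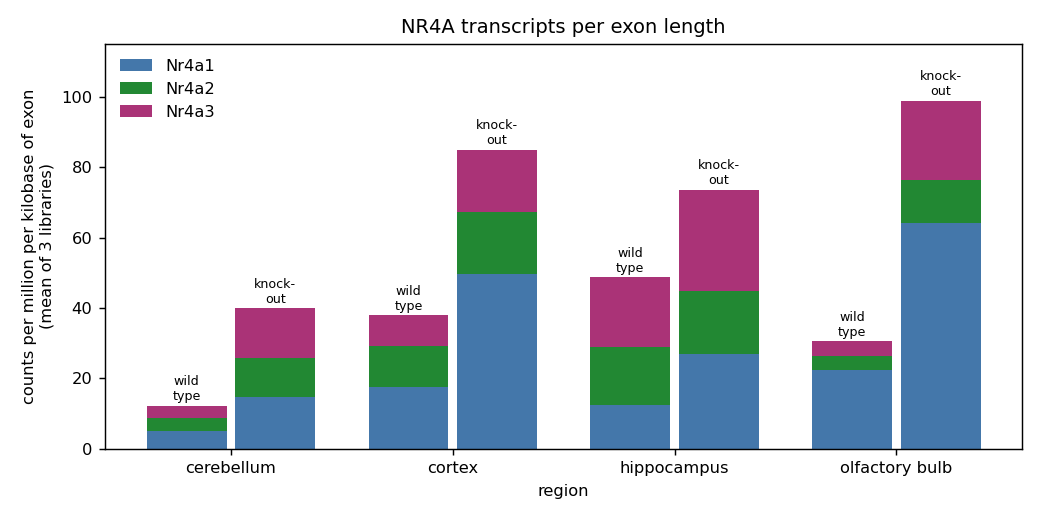
Mean NR4A level per exon length in each group of 3 libraries, in CPM per kilobase, stacked by member. The summed bar is taller in the knockout in each region, from 12.3 to 39.9 in the cerebellum and from 48.7 to 73.6 in the hippocampus, and Nr4a1 forms most of it in the olfactory bulb.

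Nr4a2 and Nr4a3 had the more similar profiles over regions, but not within groups. Over 24 libraries the log2 CPM of Nr4a2 and Nr4a3 correlated at Pearson's r = 0.89, and those of Nr4a1 with either at 0.56 and 0.60. With the region means removed the 3 pairs were at 0.82 to 0.89, again highest for Nr4a2 with Nr4a3. With the group means removed the order turned, and Nr4a2 with Nr4a3 was lowest at 0.41, against 0.58 for Nr4a1 with Nr4a2 and 0.61 for Nr4a1 with Nr4a3. These values are descriptions: the libraries share regions, genotype and depth.

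Among 13207 genes with a mean log2 CPM of at least 1, the genes most like Nr4a1 after removal of region means were Fos (r = 0.98), Per1 (0.96), 1700016P03Rik (0.94), Dusp1 (0.92) and Sik1 (0.90). Fos encodes a subunit of the factor AP-1, Per1 a clock protein with cyclic AMP-responsive transcription, Dusp1 a phosphatase of MAP kinases and Sik1 a salt-inducible kinase. The genes most like Nr4a3 were the AP-1 gene Fosl2 (0.94), Banp (0.89), Nr4a2 (0.89), Per1 (0.87) and Fos (0.87). For Nr4a2 they were Nr4a3 (0.89), Fosl2 (0.84), Jmjd6 (0.82), Nr4a1 (0.82) and Fos (0.82). By levels, with regions kept in, Nr4a1 was nearest to 1700016P03Rik (0.95) and Npas4 (0.92), and Nr4a2 and Nr4a3 were nearest to each other, with Nr4a2 next to Stk25 (0.82) and Nr4a3 next to Nos3 (0.83).

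The other neuronal immediate early genes gave the wider setting. Of 23 on the list, 21 to 23 were tested per region, and 17 of 21 were higher in the knockout in the cerebellum, 19 of 23 in the cortex, 20 of 23 in the hippocampus and 22 of 23 in the olfactory bulb. Over all genes tested, 43.1%, 50.1%, 46.2% and 47.8% were higher. The list's median log2 difference was 0.56, 1.01, 0.55 and 1.22 in those regions, against all-gene medians between -0.04 and 0. The NR4A medians were 1.65, 0.99, 0.55 and 1.59.

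By edgeR, 3 listed genes rose past the threshold, all in the olfactory bulb: Fosl2 by 1.68 (SE 0.17), Egr3 by 1.58 (SE 0.16) and Fosb by 2.17 (SE 0.23), each at adjusted p = 0.0167. Fosb and Fosl2 encode AP-1 subunits and Egr3 a zinc finger factor. In the cerebellum, cortex and hippocampus none passed. An unadjusted p under 0.05 with a higher knockout level was reached by 9 of 21, 17 of 23, 13 of 23 and, in the olfactory bulb, 17 of 23, against the 1.25%, 2.62%, 1.95% and 1.52% of all genes given above, and by none with a lower level. Fos, the gene most like Nr4a1, stood at 55.8 ± 21.9 CPM in knockout and 11.8 ± 4.77 in wild-type cerebellum, and at 93.8 ± 26.2 and 28.2 ± 17.4 in the olfactory bulb. Fosl2 was at 362.6 ± 73.4 against 112.8 ± 19.9 CPM in the olfactory bulb but at 108.1 ± 17.3 against 99.5 ± 4.19 in the hippocampus, where Nr4a2 differed least too.

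**Figure D5:**
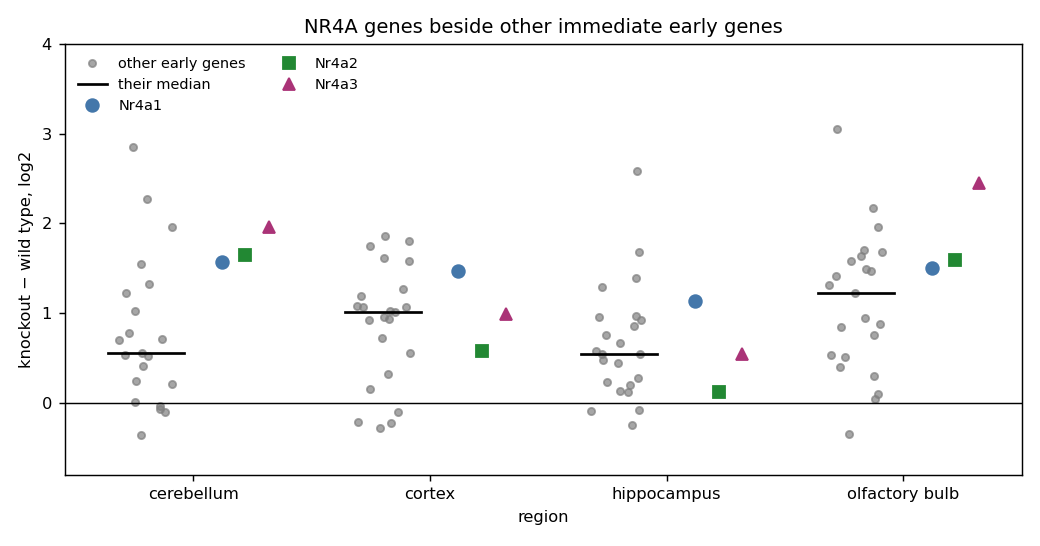
Log2 difference between knockout and wild type by region for the 3 NR4A genes (coloured symbols) and for the 21 to 23 other early genes tested (grey, with their median as a line). Most grey points lie above 0, with medians of 0.56, 1.01, 0.55 and 1.22, and the 3 members lie within the range of the other early genes in each region.

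Genes that act upstream of NR4A transcription gave no call. The list of 25 induction genes holds CREB, its coactivators, salt-inducible kinases, class IIa histone deacetylases, MEF2 factors and serum response factor, and 24 were tested per region. None passed by edgeR, with median log2 differences between 0.02 and 0.11, and 1, 2, 3 and 3 of 24 had an unadjusted p under 0.05 in cerebellum, cortex, hippocampus and olfactory bulb. In either direction 1.89%, 5.64%, 4.01% and 2.43% of all genes reached that. The largest differences on the list included Sik2, a kinase that restrains CREB coactivators, at 143 ± 32.5 against 92.3 ± 7.67 CPM in the olfactory bulb (log2 difference 0.62, SE 0.16, adjusted p = 0.992). The deacetylase gene Hdac5 was at 316.5 ± 53.3 against 220.4 ± 15.0 CPM there (0.51, SE 0.13, adjusted p = 0.992).

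Other nuclear receptors centred near 0. Of 46 listed, 31 to 34 were tested per region, with median log2 differences of 0.04, 0.01, -0.02 and -0.03 in cerebellum, cortex, hippocampus and olfactory bulb. None passed by edgeR, and 2 of 31, 3 of 34, 3 of 33 and 1 of 34 had an unadjusted p under 0.05 in the same order, against the same 1.89%, 5.64%, 4.01% and 2.43% of all genes. Rara, a retinoic acid receptor, stood at 19.99 ± 3.02 against 12.3 ± 0.956 CPM in the cortex (log2 difference 0.68, SE 0.15, adjusted p = 0.708) but at 24.96 ± 2.10 against 31.6 ± 2.46 in the cerebellum. The clock-linked repressor Nr1d2 had log2 differences of -0.23 to -0.44 in the 4 regions, none past the threshold.

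The proteins that work with NR4A receptors, retinoid X receptors, coactivators and corepressors among them, gave no call either. Of 14 partner genes, 13 or 14 were tested, with medians between 0 and 0.11 and 0, 2, 0 and 1 at an unadjusted p under 0.05 in the 4 regions (1.89%, 5.64%, 4.01% and 2.43% of all genes). Of 14 dopamine-lineage genes tied to Nr4a2, 7 or 8 were expressed enough to be tested per region, and none passed by edgeR, with 1 of 8 at an unadjusted p under 0.05 in the cortex (5.64% of all genes) and none elsewhere. That gene was Th, the rate-limiting enzyme of dopamine synthesis, at 2.52 ± 0.764 CPM in knockout and 5.52 ± 2.35 in wild-type cortex (log2 difference -1.15, SE 0.35, adjusted p = 0.858). Th is also 1 of the olfactory bulb markers whose sum was lower in knockout cortex. Its level was 5.36 ± 2.46 against 3.41 ± 0.834 CPM in the cerebellum and 0.458 ± 0.406 against 0.419 ± 0.152 in the hippocampus. Th was at 130.9 ± 8.20 CPM in knockout and 123.9 ± 7.17 in wild-type olfactory bulb, where Nr4a2 stood at 48.8 ± 13.3 and 16.1 ± 3.31.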

How the data were processed

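The authors deposited raw gene counts, with a table for each library, from TRIzol RNA depleted of ribosomal RNA with an RNase H method and prepared with a stranded kit, per the labels' protocols. STAR 2.5.1b, HTSeq 0.6.1p1, bcl2fastq 2.17.1.14 and the mm9 build are named in the submitters' processing notes. No source used here gives the strand setting of the counting. The 5 summary entries per table were not used in scaling or tests; 20.3% to 62.9% of all entries were reads assigned to no feature. Symbols came from GENCODE M21 (GRCm38), which matched 32897 identifiers, and the coordinates printed are of GRCm38, not mm9.

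In each region the genotypes were compared with edgeR 4.0.16 (R 4.3.3; quasi-likelihood, TMM, robust, filterByExpr with a minimum count of 10), two-sided, with Benjamini-Hochberg adjustment over all genes tested and a threshold of 0.05. The mean over regions was tested with limma 3.58.1 on log2 CPM (prior count 2) averaged over the 4 regions. Interactions used all 24 libraries and wild-type pairs of regions the 12 wild-type libraries, in both cases taken as independent. DESeq2 1.42.0, other scalings and filters, a replicate block, covariates and left-out libraries were alternatives. The tests were tested on simulated data. Standard errors were taken as the log2 difference over the square root of F, and 95% intervals from these.

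The members and lists were chosen with earlier results of these data known. The named genes are the members, Cdr1as, up to 4 genes per list and comparison with the smallest p, and the 5 genes most correlated with each member; the level comparisons added Fosl2 in the hippocampus, Rara in the cerebellum and Th in the hippocampus and olfactory bulb after their values were seen. The list of region and cell type markers (12 lists in all) came from general knowledge. Hbb-b1 and Hbb-b2 had no matching identifier. No 2 replicates agreed within sampling noise.

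Replicates are numbered 1 to 3 in the labels. Deviations from the group means were correlated for knockout and wild-type libraries that share a number. In the cortex r was 0.15 to 0.59 and for the regional means 0.17 to 0.23, so there the number was taken to pair libraries. Deviations within a group of 3 cancel, so a positive r at the same number goes with negative r at other numbers. Differently numbered cortex libraries were at -0.64 to 0.32, and knockout 3 was nearer to wild type 1 (0.32) than to wild type 3 (0.15). Both cortex libraries numbered 2 had more reads in no feature, 53.7% in knockout and 56.2% in wild type, against 20.3% to 34.9% in the other cortex libraries. What links same-numbered libraries was not tested. Their r was 0.06 to 0.11 in the cerebellum, -0.22 to 0.02 in the hippocampus and -0.11 to 0.11 in the olfactory bulb, where the number was not taken to pair libraries. For libraries of 1 genotype that share a number in a pair of regions, r was -0.17 to 0.43.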

Additional observations from a re-analysis of the deposited data

How the results depend on the processing

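The sign of the genotype difference was the same under every alternative for all 3 members in all regions, apart from Nr4a2 in the hippocampus, which was 0.00 without hippocampus knockout 3. RLE size factors and the stricter filter changed no call of a member. For each change below the cause was not tested.

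DESeq2 gave 1.56, 1.64 and 1.96 for Nr4a1, Nr4a2 and Nr4a3 in the cerebellum, 1.48 and 1.0 for Nr4a1 and Nr4a3 in the cortex, 1.14 and 0.55 for the same genes in the hippocampus, and 1.58 and 2.45 for Nr4a2 and Nr4a3 in the olfactory bulb, all past the threshold. It called 19, 39, 16 and 13 genes in those regions and 13 in the overall interaction, where edgeR called 1, 1, 1, 4 and 1, and 3 in each contrast of cerebellum, cortex or hippocampus with the other regions. Its overall interaction had adjusted p = 0.0141 for Nr4a2 and 0.000607 for Nr4a3, and its wild-type cortex minus hippocampus for Nr4a2 was -0.51. Without a low-count filter Nr4a3 in the cerebellum (1.96), Nr4a1 in the cortex (1.49) and Nr4a2 in the olfactory bulb (1.60) passed, and the counts of genes were 3, 7, 5 and 16 by region, 2 for the interaction and the cerebellar contrast, and 0 for the hippocampal contrast. In 1 fit of all 24 libraries Nr4a2 and Nr4a3 passed in the cerebellum (1.65 and 1.95) and the olfactory bulb (1.60 and 2.46), with 4, 6, 2 and 7 genes by region. For the mean over regions edgeR on all 24 libraries gave 1.42 for Nr4a1 and 0.97 for Nr4a2 with 78 genes called. That fit took the libraries as independent, although those of the same genotype and number may share an animal. Its count is therefore not comparable with that of the limma fit on regional means. Without the hippocampus the mean was 1.23 for Nr4a2 and called, and without the olfactory bulb 1.18 for Nr4a3, no longer called (adjusted p = 0.0962), with 1 gene called. With the no-feature share as a covariate, cortical Nr4a2 (0.60) and Nr4a3 (1.06) passed, with 56 genes in the cortex, 2 each in the hippocampus, the interaction and the cortical contrast, and 0 in the hippocampal contrast.

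With the replicate block, Nr4a1 reached 1.49 in the cortex, 1.11 in the hippocampus and 1.66 in the olfactory bulb, Nr4a3 reached 1.02 in the cortex and 2.53 in the olfactory bulb, and the mean over regions was 1.45 for Nr4a1 and 0.95 for Nr4a2, all called. The block called 30, 6 and 11 genes in cortex, hippocampus and olfactory bulb, 15 for the mean and 0 in the hippocampal contrast, and wild-type hippocampus minus olfactory bulb for Nr4a1 was -0.78 and called. No other call of a member changed. Between genotypes in the cerebellum, hippocampus and olfactory bulb, same-numbered libraries were not taken as paired. Across regions within a genotype they correlated at -0.17 to 0.43 (median 0.12), and differently numbered ones at -0.43 to 0.16 (median -0.05).

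Leaving out 1 library at a time gave 1.40 to 1.96 for Nr4a2 and 1.81 to 2.12 for Nr4a3 in the cerebellum, and 1.18 to 2.13, 1.41 to 1.77 and 2.21 to 2.91 for Nr4a1, Nr4a2 and Nr4a3 in the olfactory bulb. The counts of genes ran from 1 to 3 in cerebellum and cortex, 1 to 47 in the hippocampus (highest without wild type 2) and 1 to 8 in the olfactory bulb (highest without wild type 3, lowest without knockout 3 or wild type 1 or 2). For the mean they ran from 2 to 5, with Nr4a2 at 0.82 to 1.04. The overall interaction had adjusted p = 0.0202 (without cerebellum knockout 1) to 1 for Nr4a2 and 0.00356 (without olfactory bulb wild type 3) to 0.793 for Nr4a3, with 1 to 2 genes called. Against the other regions, Nr4a1 ran from -0.02 to 0.51 in the cerebellum, -0.13 to 0.33 in the cortex and -0.21 to 0.76 in the olfactory bulb, and Nr4a3 from -1.42 to -1.18 in the hippocampus and 1.06 to 1.76 in the olfactory bulb, where -1.42 and 1.76 (without olfactory bulb wild type 3) were called. The reversed Nr4a1 values were -0.02 in the cerebellum, -0.01, -0.02, -0.04, -0.08, -0.12 and -0.13 in the cortex and -0.01, -0.02, -0.08 and -0.21 in the olfactory bulb. These contrasts called 1 to 2 genes in cerebellum and cortex, 0 to 3 in the hippocampus and 0 to 1 in the olfactory bulb. In the wild type, cerebellum minus hippocampus was -1.57 to -1.03 for Nr4a1, cerebellum minus olfactory bulb -0.43 to 0.28 for Nr4a3, cortex minus hippocampus -0.57 to -0.44 for Nr4a2 and -1.42 to -0.96 for Nr4a3 (1135 to 2521 genes called, highest without cortex wild type 2), cortex minus olfactory bulb -0.70 to 0.28 for Nr4a1 and 0.81 to 1.56 for Nr4a3, and hippocampus minus olfactory bulb -1.24 to -0.26 for Nr4a1.

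Alternatives chosen after seeing the data left out shallow or choroid-rich libraries. Olfactory bulb Nr4a2 then reached 1.65 (called). Over the 21 deeper libraries, also taken as independent, edgeR gave 1.41 for Nr4a1 and 0.98 for Nr4a2 with 174 genes called. The overall interaction had adjusted p = 0.00251 for Nr4a2 with 2 genes called, the hippocampal contrast of Nr4a2 was -1.26 and called, and the olfactory bulb contrast of Nr4a1 reversed to -0.34. Without the choroid-rich libraries 6 genes were called in the hippocampus, where the 1 wild-type library left is assumed to vary like the knockout group. Depth limits the shallow libraries most: the lowest count of a member was 100.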
